A study of Mus musculus with 7 samples.

Results

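The 39 genes described here encode nucleolar proteins, rRNA processing and ribosome assembly factors, and RNA polymerase I components. They were chosen by symbol, as the rows carrying one of the 39 listed names among the 24346 genes of the deposited table. Bulk RNA-seq was done on the cerebral cortex of male mice at postnatal day 100, on a C57BL/6J background. The 4 CrT-/y animals (labelled Slc6a8 KO, replicates 0 to 3) carry a germline deletion within *Slc6a8*, the X-linked gene of the creatine (Cr) transporter, in the whole body, and the 3 CrT+/y animals (labelled Slc6a8 WT, replicates 1 to 3) are wild-type males selected from the same litters. No animal received a treatment, and each gave 1 library. The values are FPKM, fragment numbers scaled to exon length and library size, so levels can be compared between genes of different length.

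Ribosomes are built in the nucleolus. RNA polymerase I transcribes the long precursor of the rRNAs, small nucleolar ribonucleoproteins (snoRNPs) modify and help to fold it, and a relay of assembly factors trims it and packs it with ribosomal proteins into the small and the large subunit. In growing cells this pathway is under the control of Myc and mTOR signaling. Neurons no longer divide but keep nucleoli and renew their ribosomes throughout life.

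All 39 genes were found, and all had a mean of at least 1 FPKM and were tested. Their mean over the 7 animals ran from 2.41 FPKM for *Rrp1b* to 82.3 FPKM for *Npm1*, with a median of 10.1 FPKM against 11.1 FPKM over the 12988 genes tested. Each gene was compared between genotypes with limma on log2(FPKM + 0.1), and a call is an adjusted p-value under 0.1, with Benjamini-Hochberg adjustment over all genes tested. Fold changes are on that scale, CrT-/y minus CrT+/y, which understates the change of genes near 1 FPKM.

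The series as a whole sets the background for these genes. *Slc6a8* itself was at 12.4 to 15.7 FPKM in CrT-/y and at 28.0 to 32.3 FPKM in CrT+/y animals, so the groups were apart as labelled in all 7 libraries. *Neurod6*, a marker of cortical excitatory neurons, and the markers of interneurons, astrocytes, oligodendrocytes, microglia and endothelial cells were all above 1 FPKM on average. The 4 markers of dividing cells (*Mki67*, *Top2a*, *Cdk1* and *Ccnb1*) summed to between 0.691 and 0.870 FPKM in CrT-/y and between 0.450 and 0.879 FPKM in CrT+/y animals, and none reached a mean of 1 FPKM. The log2 profiles of animals correlated with a Pearson's r of 0.986 to 0.990 within CrT-/y, 0.982 to 0.984 within CrT+/y and 0.979 to 0.987 across genotypes. The depth of each library is not part of the table, and the read numbers that the paper lists per replicate were not used.

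In the CrT-/y cortex 5 of the 39 genes were called, all of them lower. These were *Rbm28* and *Rexo4*, at 68.6% and 71.0% of the CrT+/y mean, *Dkc1* at 77.1%, *Nolc1* at 83.3% and *Rrs1* at 84.4%. The 5 genes are 12.8% of the list, where 7.25% of all tested genes were called lower. No gene of the list was called higher with limma, where 2.90% of all tested genes were. Without adjustment, 11 of the 39 genes had a p-value under 0.05, a share near that of all genes, 3252 of 12988. The median log2 fold change was -0.08 over the 39 genes and -0.03 over all tested genes, and 30 of the 39 lay below 0, 76.9% against 58.2% of all tested genes. The groups did not overlap in 10 genes that were lower in every CrT-/y animal, 25.6% of the list against 15.0% of all tested genes, and in 1 gene that was higher, against 6.57%.

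Scaling between animals set the direction of many of the remaining genes. Over all tested genes 28.6% of the calls were higher in CrT-/y animals as deposited, 48.8% after quantile normalization, 48.2% after median centring and 71.1% after upper quartile scaling. The paper, also with limma at an adjusted p-value under 0.1, reported fewer genes in all than the main fit here. More of its genes were up than down, unlike in the main fit. The reason for this difference was not tested. After upper quartile scaling 20 of the 39 genes lay below 0, the median was -0.0042, and the calls were *Dkc1*, *Rbm28* and *Rexo4* as lower and *Gnl3* as higher. Of all tested genes 3.06% were then called lower and 7.52% higher. The median of all tested genes was then 0.045. Upper quartile scaling and median centring move all genes of an animal alike and leave the distance of the list from all genes about as it was. Quantile normalization does not move all genes alike. The median was then -0.0549 for the list and -0.0023 for all tested genes.

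**Figure D1:**
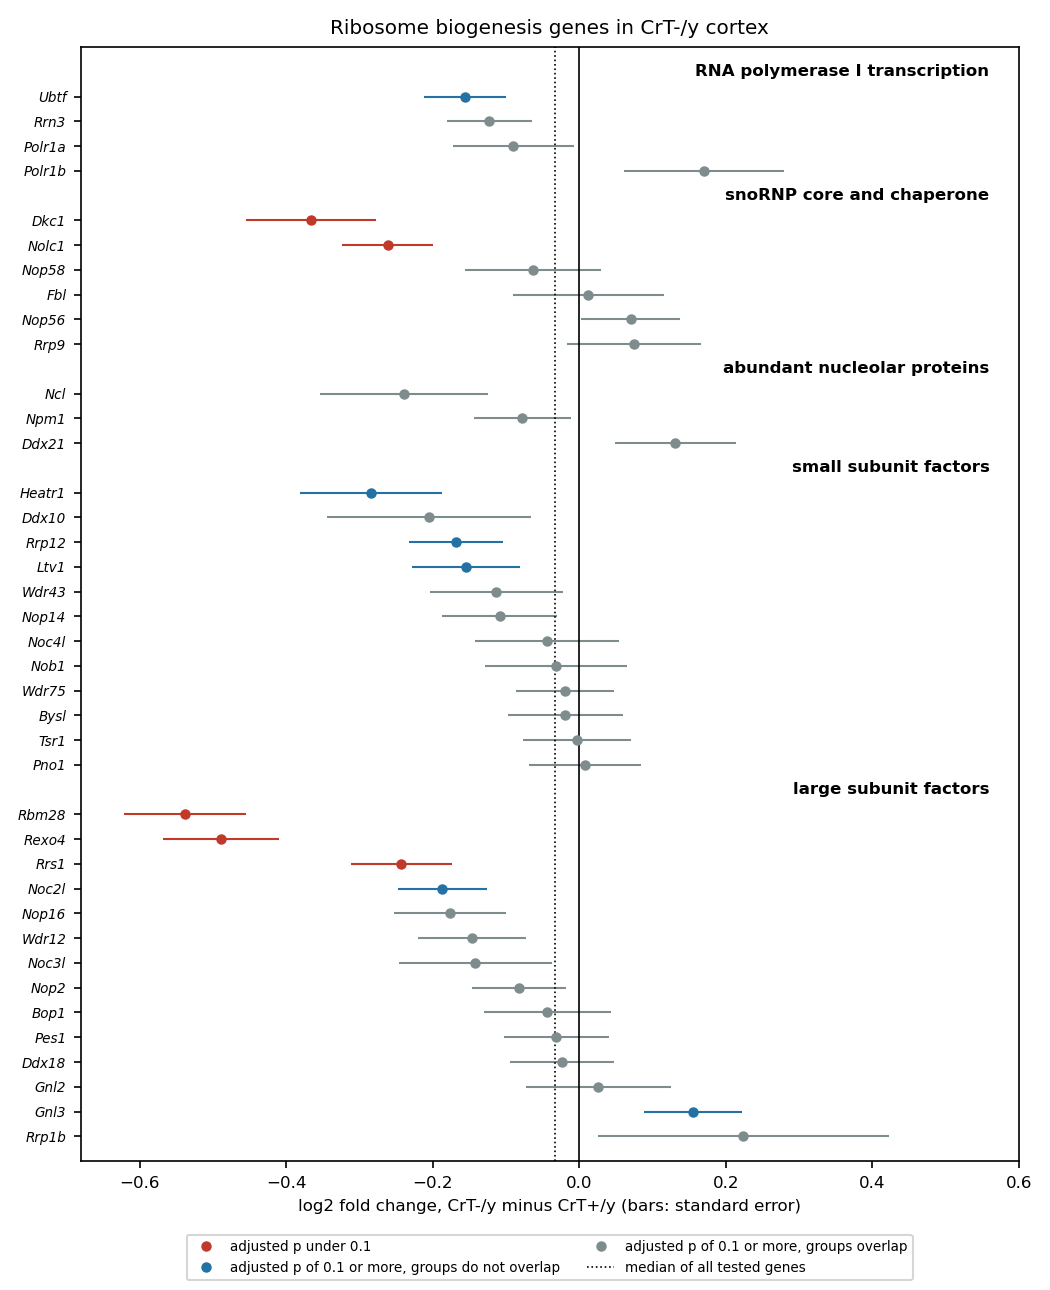
Log2 fold change of the 39 genes between CrT-/y (n = 4) and CrT+/y (n = 3) cortex, grouped by role, with the standard error from limma as bars. Red points are the 5 called genes, blue points are genes that missed this threshold but whose groups did not overlap, and the dotted line marks the median of all 12988 tested genes at -0.03.

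The lowest values relative to CrT+/y animals were found among factors of the large subunit. *Rbm28*, an RNA-binding protein of the nucleolus needed for large subunit assembly, was at 8.03, 7.09, 7.37 and 8.52 FPKM in CrT-/y replicates 0 to 3 and at 10.4, 11.9 and 11.6 FPKM in CrT+/y replicates 1 to 3. Every CrT-/y animal lay below every CrT+/y animal. The means were 7.76 ± 0.646 FPKM (SD, n = 4) and 11.3 ± 0.783 FPKM (SD, n = 3), giving a log2 difference of -0.54 (SE 0.083, limma adjusted p = 0.025). The call held under each of the 20 alternative settings tried, with a log2 fold change between -0.60 and -0.46. Without CrT-/y replicate 1 it held only just (limma adjusted p = 0.0999).

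*Rexo4*, a putative RNA exonuclease of the nucleolus, was at 10.8, 10.8, 11.5 and 12.4 FPKM in CrT-/y replicates 0 to 3 and at 16.6, 14.5 and 17.0 FPKM in CrT+/y replicates 1 to 3. These groups too were fully apart. The means were 11.4 ± 0.757 and 16.0 ± 1.38 FPKM, giving a log2 difference of -0.49 (SE 0.079, limma adjusted p = 0.026). It was called under 19 of the 20 alternatives and missed the threshold without CrT-/y replicate 1 (limma adjusted p = 0.107).

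*Rrs1*, which brings the 5S rRNA particle to the growing large subunit together with Rpf2, was at 12.2, 10.7, 11.2 and 11.0 FPKM in CrT-/y and at 14.2, 13.0 and 12.9 FPKM in CrT+/y animals. CrT-/y replicate 0 came closest to the CrT+/y range. *Rrs1* had a log2 fold change of -0.24 (SE 0.069, limma adjusted p = 0.082). The call was near the threshold, and 8 of the 20 alternatives kept it.

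The other called genes serve the snoRNPs. *Dkc1* encodes dyskerin, the pseudouridine synthase of the H/ACA snoRNPs, which also belongs to telomerase. It was at 9.04, 9.21, 8.86 and 10.0 FPKM in CrT-/y replicates 0 to 3 and at 13.2, 12.5 and 10.4 FPKM in CrT+/y replicates 1 to 3. CrT-/y replicate 3 and CrT+/y replicate 3 lay close to each other, while the other animals were well apart. This gave -0.37 on the log2 scale (SE 0.089, limma adjusted p = 0.059), and 13 of the 20 alternatives kept the call.

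*Nolc1*, a phosphoprotein that accompanies snoRNPs on their way to the nucleolus, was at 17.0, 16.4, 17.1 and 15.5 FPKM in CrT-/y and at 20.7, 20.1 and 18.6 FPKM in CrT+/y animals. The groups did not overlap. The log2 difference was -0.26 (SE 0.063, limma adjusted p = 0.057), and 12 of the 20 alternatives kept the call.

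**Figure D2:**
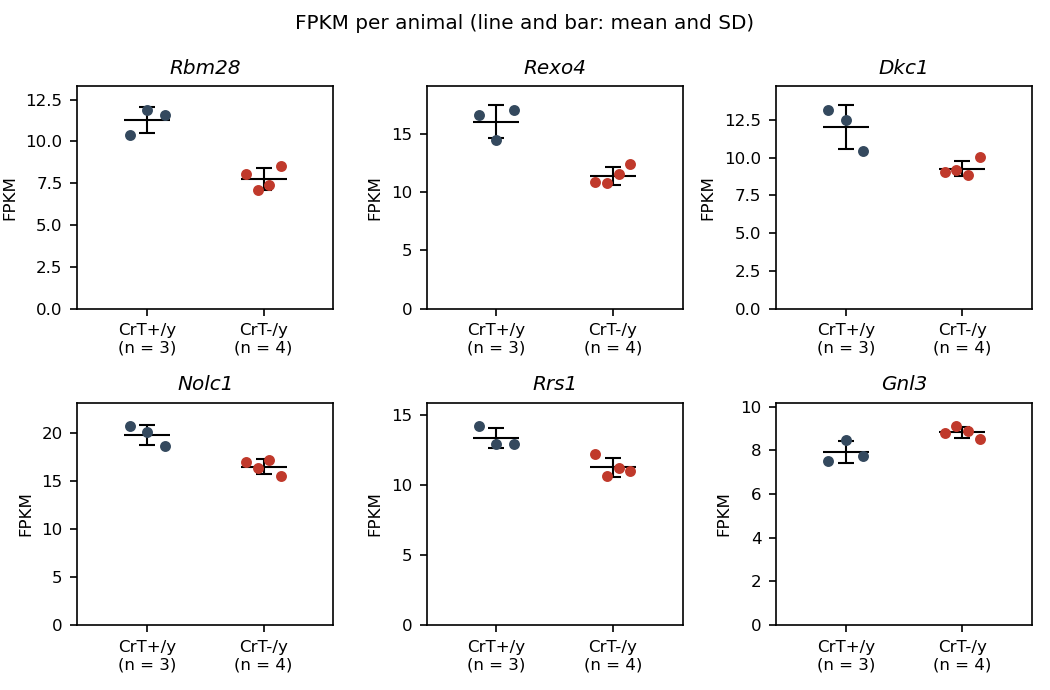
FPKM of the 5 called genes and of *Gnl3* in each animal, with the mean as a line and the SD as a bar (CrT+/y, n = 3; CrT-/y, n = 4). The CrT-/y animals lie below all CrT+/y animals in the first 5 panels, with the narrowest gap in *Dkc1* (10.0 and 10.4 FPKM), and above them in *Gnl3* (8.49 and 8.48 FPKM at the nearest).

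The stretch of 250 bases before the annotated gene start is shown for 3 of the called genes, since they were lower together. RefSeq windows on GRCm38.p6 were used for 33 of the 39 genes, *Rrs1* not among them. The stretch of *Rbm28* was searched but is not shown, since it lies in the first exon of its principal GENCODE transcript. The sequences were searched for the hexamer CACGTG, the E-box bound by Myc and related factors, which reads the same on both strands, and any match is in capitals.

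*Rexo4*, chr2:26964387-26964636, minus strand: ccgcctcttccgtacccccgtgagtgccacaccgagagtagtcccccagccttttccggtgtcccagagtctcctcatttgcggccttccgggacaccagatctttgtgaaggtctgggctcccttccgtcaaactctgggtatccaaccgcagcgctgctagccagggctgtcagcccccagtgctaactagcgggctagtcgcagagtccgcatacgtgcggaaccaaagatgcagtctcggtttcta
*Dkc1*, chrX:75095604-75095853, plus strand: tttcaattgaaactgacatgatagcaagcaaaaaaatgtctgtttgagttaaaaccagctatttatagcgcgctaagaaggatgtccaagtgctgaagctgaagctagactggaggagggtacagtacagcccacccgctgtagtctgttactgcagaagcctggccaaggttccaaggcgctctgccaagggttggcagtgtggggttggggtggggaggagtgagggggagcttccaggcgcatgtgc
*Nolc1*, chr19:46075597-46075846, plus strand: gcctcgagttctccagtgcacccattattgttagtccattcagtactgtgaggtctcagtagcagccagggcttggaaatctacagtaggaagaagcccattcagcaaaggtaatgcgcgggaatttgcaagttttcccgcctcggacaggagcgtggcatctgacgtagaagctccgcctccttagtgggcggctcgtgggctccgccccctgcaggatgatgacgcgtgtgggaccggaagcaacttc

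None of these 3 stretches, nor that of *Rbm28*, held the hexamer. In the full windows, which run 50 bases into the gene, 7 of the 33 genes (21.2%) held it, against 11.9% of the 9868 tested genes with a window and 7.15% of all 32851 windows. The 7 genes were *Rrn3*, *Nop2*, *Ltv1*, *Pes1*, *Pno1*, *Tsr1* and *Wdr43*, none of which was called. In *Rrn3*, which encodes the factor that recruits RNA polymerase I to its promoter, 2 copies stood 215 and 48 bases before the gene start, and in *Nop2*, which encodes an rRNA methyltransferase, 1 copy stood 60 bases before it. These stretches are shown because they held a copy before the gene start. Most uncalled genes with a window lacked the hexamer too, and a difference from the called genes was not tested.

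*Rrn3*, chr16:13780449-13780698, plus strand: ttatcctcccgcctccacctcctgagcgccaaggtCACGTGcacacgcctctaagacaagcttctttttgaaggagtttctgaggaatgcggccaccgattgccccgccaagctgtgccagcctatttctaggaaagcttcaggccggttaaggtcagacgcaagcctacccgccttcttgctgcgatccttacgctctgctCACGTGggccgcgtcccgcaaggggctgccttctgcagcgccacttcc
*Nop2*, chr6:125131633-125131882, plus strand: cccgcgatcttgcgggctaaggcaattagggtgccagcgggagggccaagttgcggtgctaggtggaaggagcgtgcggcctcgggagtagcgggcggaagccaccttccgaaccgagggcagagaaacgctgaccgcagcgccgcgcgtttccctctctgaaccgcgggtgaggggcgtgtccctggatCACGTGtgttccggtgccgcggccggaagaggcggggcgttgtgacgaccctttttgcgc

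A match says only that these letters are present, and no binding was measured. *Rrn3* was at -0.12 on the log2 scale (limma adjusted p = 0.22) and *Nop2* at -0.08 (limma adjusted p = 0.46).

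Among the genes of RNA polymerase I transcription, 0 of 4 were called with limma, against 10.1% of all tested genes. Of the 4, 1 had an unadjusted limma p-value under 0.05. This was *Ubtf*, the factor that binds and opens the rRNA genes. It was at 27.7, 27.9, 27.4 and 28.4 FPKM in CrT-/y and at 32.3, 32.0 and 28.9 FPKM in CrT+/y animals. The groups did not overlap, but CrT+/y replicate 3 came close to the CrT-/y animals. Its log2 difference was -0.16 (limma adjusted p = 0.14). The catalytic subunits *Polr1a* and *Polr1b* had log2 fold changes of -0.09 and 0.17, with overlapping groups.

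Among the abundant nucleolar proteins 0 of 3 were called, against 10.1% of all tested genes. Of the 3, 0 had an unadjusted limma p-value under 0.05. *Npm1* and *Ncl* had the highest means of the list. *Npm1*, the histone and ribosome chaperone nucleophosmin, was at 82.4, 82.2, 81.5 and 75.5 FPKM in CrT-/y and at 88.8, 89.1 and 77.0 FPKM in CrT+/y animals. The groups overlapped through CrT-/y replicates 0 to 2 and CrT+/y replicate 3 (-0.08 on the log2 scale, limma adjusted p = 0.50). *Ncl*, nucleolin, was at 45.9, 41.5, 44.6 and 38.2 FPKM in CrT-/y and at 58.2, 52.6 and 41.0 FPKM in CrT+/y animals. CrT+/y replicates 1 and 2 were above all CrT-/y animals and replicate 3 lay within their range (-0.24, limma adjusted p = 0.23). *Ddx21*, an RNA helicase with a mean of 6.12 FPKM, had a log2 fold change of 0.13 with overlapping groups.

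The core proteins of the box C/D snoRNPs showed smaller differences than *Dkc1* and *Nolc1*. *Nop56* was at 29.3, 31.9, 31.8 and 27.5 FPKM in CrT-/y and at 29.9, 28.6 and 27.4 FPKM in CrT+/y animals, so that the genotypes were interleaved (0.07 on the log2 scale, limma adjusted p = 0.55). *Nop58*, the methyltransferase *Fbl* and the U3 component *Rrp9* had log2 fold changes of -0.06, 0.01 and 0.07, all with overlapping groups. Whether *Dkc1* differed from these genes in its response was not tested.

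Of the 12 small subunit factors, 11 had a log2 fold change below 0 (91.7%, against 58.2% of all tested genes). With limma 0 of the 12 were called, against 10.1% of all tested genes, and 2 had an unadjusted p-value under 0.05. The lowest was *Heatr1*, which couples transcription of the rRNA to its first processing steps. It was at 3.60, 4.18, 4.00 and 3.68 FPKM in CrT-/y and at 4.23, 5.13 and 4.85 FPKM in CrT+/y animals, without overlap (-0.28, limma adjusted p = 0.12). *Rrp12*, which acts in maturation and export of the subunits, was at 10.5, 10.9, 10.8 and 9.89 FPKM against 12.4, 11.2 and 11.8 FPKM (-0.17, limma adjusted p = 0.15). The CrT-/y animals were again all below the CrT+/y animals. *Ltv1*, a late assembly factor, was at 5.66, 5.77, 5.83 and 5.60 FPKM against 6.88, 5.93 and 6.33 FPKM, nearly meeting at CrT-/y replicate 2 and CrT+/y replicate 2 (-0.15, limma adjusted p = 0.23). The groups overlapped in the other 9 genes, *Wdr43*, *Wdr75*, *Nop14*, *Noc4l*, *Ddx10*, *Bysl*, *Pno1*, *Nob1* and *Tsr1*, with log2 fold changes from -0.21 in *Ddx10* to 0.01 in *Pno1*.

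Of the 14 large subunit factors, 11 had a log2 fold change below 0 (78.6%, against 58.2% of all tested genes). The 3 called as described are 21.4% of this class, against 7.25% of all tested genes called lower. *Noc2l*, a member of the complexes that escort early subunits, was at 25.5, 24.4, 24.4 and 22.8 FPKM in CrT-/y and at 29.0, 27.7 and 26.2 FPKM in CrT+/y animals. The groups did not overlap, and the gene just missed the threshold (-0.19, limma adjusted p = 0.109). *Gnl3*, the nucleolar GTPase nucleostemin, was the single gene of the list that was higher in every CrT-/y animal, at 8.80, 9.09, 8.86 and 8.49 FPKM against 7.51, 8.48 and 7.74 FPKM. CrT-/y replicate 3 and CrT+/y replicate 2 were nearly equal, and the gene was not called (0.16, limma adjusted p = 0.19).

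The 2 genes of lowest level next to *Heatr1* were also of this class. *Rrp1b* was at 2.38, 2.88, 3.01 and 1.97 FPKM in CrT-/y and at 1.78, 2.92 and 1.91 FPKM in CrT+/y animals, with the widest spread of the list (0.22, standard error 0.20). *Noc3l* was at 4.55, 4.84, 4.25 and 4.06 FPKM against 5.30, 5.19 and 4.22 FPKM (-0.14, limma adjusted p = 0.43). Neither gene separated the genotypes. The members of the PeBoW complex, *Pes1*, *Bop1* and *Wdr12*, had log2 fold changes of -0.03, -0.04 and -0.15 with overlapping groups. The same held for *Nop2*, *Nop16*, *Ddx18* and *Gnl2* (-0.08, -0.18, -0.02 and 0.03).

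The animals of a genotype differed among themselves. The level of the list, the median over the 39 genes of how far an animal lay from the average of all 7 on the log2 scale, was 0.002, -0.012, -0.032 and -0.098 in CrT-/y replicates 0 to 3 and 0.111, 0.067 and 0.014 in CrT+/y replicates 1 to 3. Every CrT-/y animal lay below every CrT+/y animal, as they did in the level of all tested genes, where the highest CrT-/y animal was at -0.007 and the lowest CrT+/y animal at 0.013. CrT-/y replicate 3 was the lowest of its group in 24 of the 39 genes (61.5%), as it was in 28.1% of all tested genes. CrT+/y replicate 3 was the lowest of its group in 18 genes (46.2%, against 38.8% of all tested genes) and lay within the CrT-/y range in 12.

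Which animals entered the fit moved the number of calls. Without CrT+/y replicate 3, 12 genes of the list were called lower (18.4% of all tested genes) and 1 higher (10.3% of all tested genes). The 12 were *Ubtf*, *Dkc1*, *Nolc1*, *Ncl*, *Npm1*, *Wdr43*, *Nop14*, *Ddx10*, *Rrs1*, *Noc2l*, *Rbm28* and *Rexo4*, and the one called higher was *Polr1b*. Without CrT-/y replicate 1, 1 gene, *Rbm28*, was called lower (0.408% of all tested genes). Without CrT-/y replicate 2, CrT+/y replicate 1 or CrT+/y replicate 2, *Rbm28* and *Rexo4* were the only calls in the list. Of all tested genes 1.28%, 1.29% and 3.92% were called lower in these fits. *Dkc1* joined *Rbm28* and *Rexo4* without CrT-/y replicate 3 (1.96% of all tested genes lower), and *Nolc1* and *Rrs1* did without CrT-/y replicate 0 (3.47%).

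**Figure D3:**
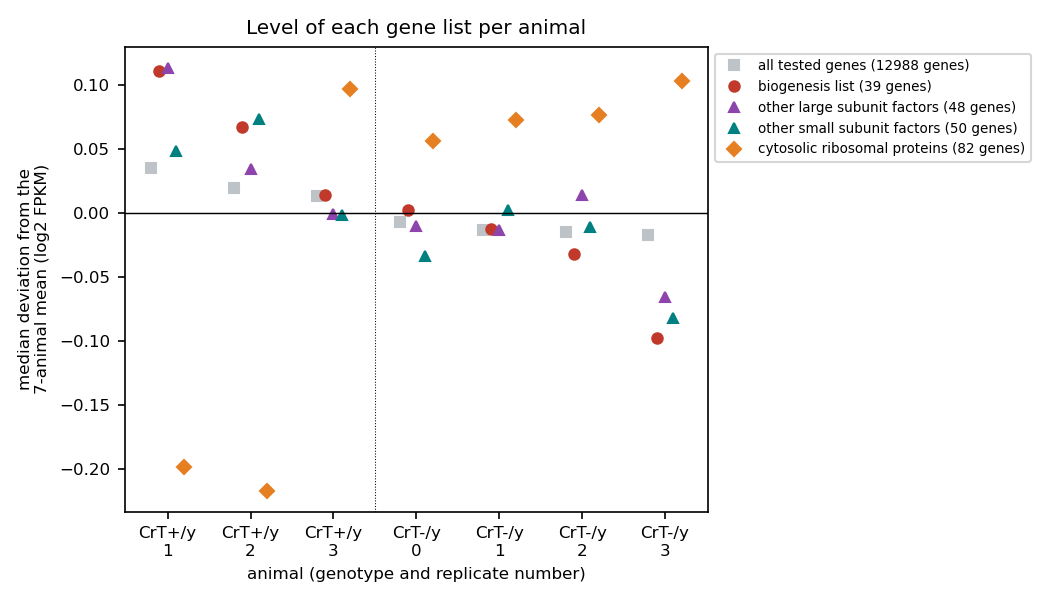
Level of gene lists in each animal, as the median over genes of how far an animal lay from the average of all 7, in log2 units. The biogenesis list (red circles) runs from -0.098 to 0.002 in CrT-/y and from 0.014 to 0.111 in CrT+/y animals, and the level of the cytosolic ribosomal proteins (orange diamonds) is lowest in CrT+/y replicates 1 and 2 (-0.199 and -0.217).

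Beside the list, 133 further ribosome biogenesis genes of 134 named were in the table and tested. Of these 6 were called lower (4.51%, against 7.25% of all tested genes) and 1 higher (against 2.90%), with a median log2 fold change of -0.06. Those called lower were *Utp6* and *Mphosph10*, of the small subunit processome, and *Rpf1*, *Rpf2*, *Ebna1bp2* and *Tex10*, of the large subunit. *Rpf2*, the partner of Rrs1, was at 7.12, 7.49, 7.83 and 7.02 FPKM in CrT-/y and at 9.46, 8.85 and 9.28 FPKM in CrT+/y animals (-0.32, limma adjusted p = 0.042). *Rpf1* was at 7.24 ± 0.478 against 9.55 ± 0.764 FPKM (-0.39, limma adjusted p = 0.042), and *Utp6* at 12.4 ± 0.412 against 15.4 ± 0.812 FPKM (-0.32, limma adjusted p = 0.036). *Mphosph10* had a log2 fold change of -0.37 and *Ebna1bp2* of -0.26, and the groups were apart in both. In the opposite direction, *Taf1b*, a subunit of the selectivity factor of RNA polymerase I, was at 8.59 ± 0.509 against 7.18 ± 0.105 FPKM (0.25, limma adjusted p = 0.071).

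Divided by role, the further genes gave 1 call among 11 of the RNA polymerase I machinery (*Taf1b*), 0 among 10 snoRNP factors (3 at an unadjusted p-value under 0.05), 2 among 50 small subunit factors, 4 among 48 large subunit factors and 0 among 14 genes of the RNA exosome and trimming (1 at an unadjusted p-value under 0.05), all with limma. Over all tested genes 10.1% were called in either direction. The ribosomal proteins that these factors assemble had calls in the other direction. Of 82 cytosolic ribosomal protein genes 9 were called higher and 0 lower with limma, where 2.90% and 7.25% of all tested genes were. Their median log2 fold change was 0.19. In either direction 35 of them had an unadjusted limma p-value under 0.05, against 3252 of all 12988 genes. Per animal their level ran from 0.056 to 0.103 in CrT-/y and stood at -0.199, -0.217 and 0.097 in CrT+/y replicates 1 to 3, so CrT+/y replicate 3 was within the CrT-/y range for this list. A difference between the lists was not tested.

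Of 13 regulators of the pathway, 2 were called, both higher, where 2.90% of all tested genes were. *Maf1*, a repressor of RNA polymerase III, was at 39.2, 36.4, 36.0 and 39.6 FPKM in CrT-/y and at 33.0, 29.1 and 33.7 FPKM in CrT+/y animals (0.25, limma adjusted p = 0.077). *Mycl*, which encodes L-Myc, was at 4.45, 4.95, 5.29 and 4.90 FPKM against 3.37, 2.72 and 3.95 FPKM (0.55, limma adjusted p = 0.052). *Myc* and *Mycn* were at 1.41 ± 0.0925 and 3.55 ± 0.268 FPKM in CrT-/y and at 1.53 ± 0.170 and 3.75 ± 0.837 FPKM in CrT+/y animals, with log2 fold changes of -0.10 and -0.06. *Trp53*, *Mdm2* and *Cdkn1a*, the p53 arm that reacts to nucleolar stress, had log2 fold changes of 0.05, -0.04 and -0.27 with adjusted p-values of 0.71, 0.77 and 0.30 with limma. *Mtor* was at 18.5 ± 0.568 against 18.3 ± 1.10 FPKM.

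A structural feature that the selection did not use was more frequent in the list than among all tested genes. In the GENCODE M21 annotation of GRCm38, 7 of the 39 genes (17.9%) contain at least 1 annotated snoRNA on the same strand, against 1.92% of all tested genes, with 21 snoRNAs in all. *Nop56* holds 5, *Nop58* 4, *Ncl*, *Wdr43* and *Gnl3* 3 each, *Tsr1* 2 and *Dkc1* 1. Among the noncoding host genes of snoRNAs, 1 of 13 was called, where 10.1% of all tested genes were called in either direction. The host gene called was *Snhg8*, which was at 11.2, 14.2, 12.8 and 11.9 FPKM in CrT-/y and at 5.53, 7.20 and 8.30 FPKM in CrT+/y animals, higher by 0.84 on the log2 scale (limma adjusted p = 0.025). The snoRNAs themselves were not analysed here.

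Some of these genes may be harder to measure than others. The authors kept uniquely aligned reads, and 5 of the 39 genes shared at least 20% of the 50-base stretches of their principal transcript with transcripts of other genes. These were *Fbl* (70.4%), *Ddx18* (62.7%), *Npm1* (40.9%), *Nop56* (37.6%) and *Pes1* (20.6%), and part of their reads may be missing. The paper's reads were paired and longer than 50 bases, so a shared stretch need not make a read pair ambiguous. Among the called genes the share was 0% for *Nolc1*, 0.83% for *Dkc1*, 1.15% for *Rbm28*, 5.70% for *Rexo4* and 6.30% for *Rrs1*. In 17 genes an exon overlapped an exon of another gene, on the opposite strand in each case. *Dkc1* is the single called gene among them. Its neighbor *Mpp1* was at 13.3 ± 1.09 FPKM in CrT-/y and 12.7 ± 1.18 FPKM in CrT+/y animals (0.07 on the log2 scale, limma adjusted p = 0.66). Whether the counting used strand is not given in the sources used here, and without it the reads of such pairs cannot be told apart. Transcripts of the list were of about usual length, their median being 2804 bp and that of all tested genes 3085 bp.

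Markers of cell types moved with genotype in part. *Neurod6*, a marker of excitatory neurons, was called lower. Of the 4 endothelial markers *Pecam1* and *Flt1* were called lower, with sums over all 4 between 55.8 and 70.1 FPKM against 67.1 and 77.8 FPKM. Another 1 of the 4 was higher in every CrT-/y animal (0.15 on the log2 scale) but was not called. *Gad1*, of 6 interneuron markers, was called higher, with sums over all 6 between 842 and 981 FPKM against 907 and 926 FPKM. The interneuron markers were split, with 4 above 0 and 2 below, and log2 fold changes from -0.54 to 0.24. Of the 5 oligodendrocyte markers 0 were called with limma (0 at an unadjusted p-value under 0.05), and their level was lowest in CrT-/y replicate 3 (-0.547), the animal in which the biogenesis genes were lowest too. The 5 striatal markers summed to between 118 and 298 FPKM in CrT-/y and between 70.5 and 257 FPKM in CrT+/y animals. All 5 had a log2 fold change above 0, from 0.35 to 1.13 with a median of 0.61. With limma 0 of the 5 were called and 0 had an unadjusted p-value under 0.05. Of the 4 olfactory bulb markers 2 were tested, both with an unadjusted limma p-value under 0.05, and *Cdhr1* was called higher. Sums over all 4 lay between 5.95 and 16.3 FPKM against 2.91 and 5.24 FPKM. Markers of ependymal cells and choroid plexus summed to between 8.69 and 395 FPKM in CrT+/y and between 9.17 and 54.8 FPKM in CrT-/y animals. With limma 0 of the 5 astrocyte, 0 of the 5 microglia and 0 of the 3 oligodendrocyte precursor markers were called, and 0, 0 and 1 of them had an unadjusted p-value under 0.05. No marker of these lists was at 0 FPKM in all animals. The part of these differences in the values of the biogenesis genes was not tested, and in bulk tissue fewer cells of a type and less RNA per cell cannot be told apart.

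**Figure D4:**
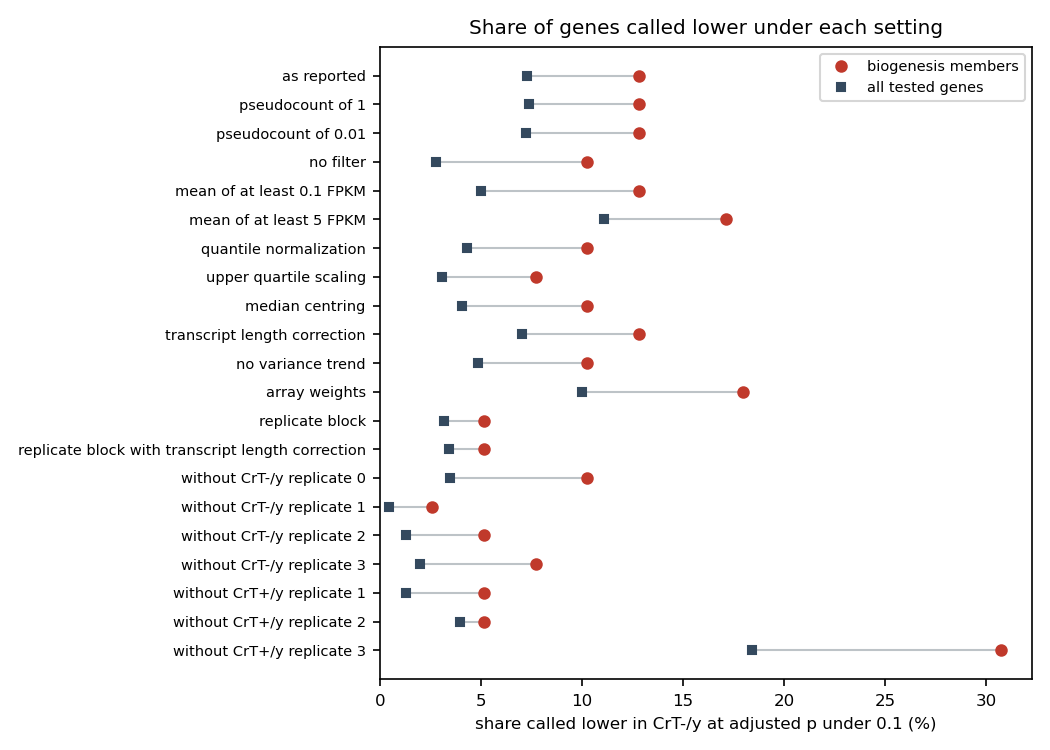
Share of genes called lower in CrT-/y animals at an adjusted p-value under 0.1 under each setting, for the biogenesis list (red circles) and for all tested genes (dark squares). The list stands at 12.8% against 7.25% as reported, and runs from 2.56% without CrT-/y replicate 1 to 30.8% without CrT+/y replicate 3.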

How the data were processed

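RNA was extracted from the cerebral cortex of 7 animals, 4 CrT-/y and 3 CrT+/y, and libraries made with the Universal Plus mRNA-Seq kit were sequenced as read pairs. The authors aligned reads to mm10 with the Tuxedo protocol, kept unique alignments to known exons or junctions, and deposited FPKM per gene and animal. The submitters' processing notes name Bowtie and Cuffnorm, and versions and the annotation are not given in the sources used here. FPKM hold no counts, so no count model was used. Sample labels gave the groups and the replicate numbers but not the litters.

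Genes whose mean reached 1 FPKM were fitted with limma 3.58.1 (R 4.3.3) on log2(FPKM + 0.1), genotype alone, with a variance trend. No set test was run. Alternatives were other pseudocounts, filters and scalings, a transcript length correction, no trend, array weights, a replicate block and each animal left out. The fit was tested on simulated data, where it recovered most large changes but not small ones. Lengths, positions and snoRNAs came from GENCODE M21 (GRCm38), which matched 23976 of 24346 symbols and gave lengths for 99.4% of tested genes. In weakly expressed genes the most frequent ratio between the values of any pair of animals lay between 0.697 and 1.38, a rough guide to their relative depth. In some pairs across genotypes it was barely more frequent than the next ratio. For CrT-/y replicate 3 and CrT+/y replicate 3 these were found in 45 and 44 genes.

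Values per animal are given for called genes, genes whose groups did not overlap, the smallest p-value in each role, and the 3 highest and 3 lowest means. Other pathway genes were named if called, up to 3 per list and direction, and *Tex10*, the *Myc* and p53 genes and genes overlapping a member were named after their values were seen. The genes and lists were chosen with earlier results of these data known. The excitatory neuron markers other than *Neurod6* are not reported here.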

Additional observations from a re-analysis of the deposited data

Results flagged for a closer look

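In 2 of the 39 genes, 1 of the 4 CrT-/y animals stood apart from the other 3 by Dixon's criterion, and chance alone gives about 1 in 20. *Polr1b* was at 4.75 FPKM in CrT-/y replicate 2 and at 5.27 to 5.34 FPKM in the other 3. *Npm1* was at 75.5 FPKM in CrT-/y replicate 3 and at 81.5 to 82.4 FPKM in the other 3, while CrT+/y animals spanned 77.0 to 89.1 FPKM.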

How the results depend on the processing

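Of the 5 called genes, *Rbm28* kept its call under all 20 alternatives, *Rexo4* under 19, *Dkc1* under 13, *Nolc1* under 12 and *Rrs1* under 8, and each kept its direction under all 20. After upper quartile scaling 3 genes of the list were called lower and 1 higher, where 3.06% and 7.52% of all tested genes were. The median of the list was then -0.0042, and *Npm1* turned from below to just above 0 (0.0014). With each animal left out in turn, between 1 and 12 genes of the list were called lower, where 0.408% to 18.4% of all tested genes were. Between 0 and 1 were called higher, where 0.0847% to 10.3% of all tested genes were. In either direction between 64 and 3736 of all genes were called. Without a filter 730 genes were called in all, against 1318.

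Animals of the same number did not deviate together (r = -0.078, 0.046 and -0.051 for numbers 1 to 3), and CrT-/y replicates 1 and 3 correlated better with a CrT+/y animal of another number, so the numbers were not read as pairs. With the replicate block 2 genes of the list (*Rbm28* and *Rexo4*) were called lower, 5.13% of the list against 3.16% of all tested genes. With the block and the transcript length correction the same 2 were called lower, against 3.41% of all tested genes. In either direction 576 and 596 of all genes were called. CrT-/y replicate 0 has no partner and adds nothing to the genotype difference in these fits. The number of reads behind each value is not part of the table, so no counting error could be set beside the spread between animals.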

Other observations

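*Dkc1* lies on chromosome X from 75095854 to 75109777, 1.41 Mb from the end of *Slc6a8* (GRCm38), the gene deleted in CrT-/y animals. Of the 48 other genes tested within 2 Mb of *Slc6a8* on either side, *Dkc1* among them, 5 were called lower and 2 higher, against 7.25% and 2.90% of all tested genes, with a median log2 fold change of -0.01. This window was chosen after the position of *Dkc1* had been seen.

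In 14 of the 39 genes an exon overlapped an exon of a protein-coding gene on the opposite strand. Of the partner genes that were tested, 3 were called, where 10.1% of all tested genes were called. The partners *Mpp1*, *Parp3*, *Lgals8*, *Ccnd3*, *Srr*, *Carf*, *Mroh1* and *Pbrm1* were tested and not called, and *Hsf2bp* and *Dnali1* were not tested. The partner of *Pes1* was not among the tested genes under its symbol. *Samd11*, which overlaps *Noc2l*, was at 1.77, 1.85, 1.76 and 1.83 FPKM in CrT-/y and at 1.18, 1.22 and 1.27 FPKM in CrT+/y animals (0.52 on the log2 scale, limma adjusted p = 0.052), opposite in sign to *Noc2l* (-0.19). *Idh3b*, which overlaps *Nop56*, was at 129.8 ± 1.29 FPKM in the 4 CrT-/y and 148.7 ± 3.46 FPKM in the 3 CrT+/y animals (SD, -0.20 on the log2 scale, limma adjusted p = 0.058), while *Nop56* had a log2 fold change of 0.07. *Wdr92*, which overlaps *Pno1*, was at 2.19 ± 0.373 against 3.04 ± 0.274 FPKM (-0.46, limma adjusted p = 0.093), with 0.01 for *Pno1*.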
